A study of Homo sapiens with 18 samples.

Results

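The genes described here are 48 human genes whose proteins make ribosomes in the nucleolus, chosen by name as a module of nucleolar ribosome biogenesis. A row of the expression table was taken as a member where all of its gene symbols were among these names, which gave 50 rows for 45 genes, of 21214 rows with a symbol that stand for 20172 genes. RNA was measured on 18 Affymetrix Human Gene 1.0 ST arrays, 1 for each culture of HEK293 cells, a human embryonic kidney line. Cells had been transiently transfected with an expression plasmid for RHOXF1, with one for RHOXF2, or with a control vector, and RNA was taken 48 h or 24 h later, giving 6 groups of 3 arrays that the labels call biological triplicates. RHOXF1 and RHOXF2 are homeodomain transcription factors encoded on the X chromosome. All groups received a plasmid and a lipid reagent, so no group was left untransfected. The treatment text names a GFP vector, and it does not state whether the RHOX plasmids also encode GFP. Transient transfection leaves cells with and without plasmid in 1 culture, and the fraction that took it up is not given.

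Ribosomes are built in the nucleolus, where RNA polymerase I transcribes the ribosomal DNA into a long precursor. Small nucleolar ribonucleoproteins (snoRNPs) guide its chemical modification, box C/D particles adding 2′-O-methyl groups and box H/ACA particles making pseudouridine. The small subunit processome cleaves the precursor and folds what becomes the 40S subunit, separate factors assemble the 60S subunit, and late factors finish the 40S subunit in the cytoplasm. The genes are known to respond to growth signals, among them the transcription factor MYC, which binds the E-box CACGTG with its partner MAX.

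The 45 genes fall into 7 roles. RNA polymerase I machinery has 4 genes (POLR1A, POLR1B, POLR1C and UBTF), box C/D snoRNPs have 2 (FBL and NOP58) and box H/ACA snoRNPs have 4 (DKC1, NHP2, NOP10 and GAR1). The small subunit processome has 16, late 40S assembly has 6 and 60S assembly has 9. The last 4 are the abundant nucleolar phosphoproteins NCL, NPM1 and NOLC1 and the helicase DDX21. Of the other 3 names, DDX18 had no row under its symbol, NOP56 was measured only in a row shared with SNORD56, and PPAN only in a row shared with P2RY11. NPM1 had 4 rows, and BOP1 and NHP2 had 2 each; such genes are given by the row with the highest mean signal, with the other rows named where they differ.

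The promoters of 7 members are shown because these genes mark the ends of the main result below. NOL6, UTP20, RRP9, PNO1 and UTP15 had the 5 most negative differences between the times in control cells, and FBL and NOB1 were the only 2 members with a positive one. Each sequence is RefSeq's GRCh38.p14 sequence from 250 bases before to 50 bases after the gene's start, 5′ to 3′ on the gene's strand, with the E-box CACGTG in capitals. The windows are chr9:33473875-33474174 on the minus strand for NOL6, chr12:101279855-101280154 on the plus strand for UTP20, chr3:51941855-51942154 on the minus strand for RRP9 and chr2:68157638-68157937 on the plus strand for PNO1. The others are chr5:73565493-73565792 on the plus strand for UTP15, chr19:39846330-39846629 on the minus strand for FBL and chr16:69754877-69755176 on the minus strand for NOB1.
NOL6: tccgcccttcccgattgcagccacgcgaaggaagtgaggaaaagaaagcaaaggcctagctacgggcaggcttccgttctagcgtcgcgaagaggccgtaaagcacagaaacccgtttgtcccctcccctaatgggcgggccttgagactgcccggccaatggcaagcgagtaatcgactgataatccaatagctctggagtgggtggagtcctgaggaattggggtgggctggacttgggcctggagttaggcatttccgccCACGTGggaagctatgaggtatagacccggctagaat
UTP20: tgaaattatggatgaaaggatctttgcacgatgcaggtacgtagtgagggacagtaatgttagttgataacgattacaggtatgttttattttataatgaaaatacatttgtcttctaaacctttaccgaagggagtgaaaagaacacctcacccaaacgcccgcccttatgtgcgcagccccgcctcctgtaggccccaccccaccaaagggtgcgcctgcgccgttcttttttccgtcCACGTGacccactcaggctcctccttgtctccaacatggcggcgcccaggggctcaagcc
RRP9: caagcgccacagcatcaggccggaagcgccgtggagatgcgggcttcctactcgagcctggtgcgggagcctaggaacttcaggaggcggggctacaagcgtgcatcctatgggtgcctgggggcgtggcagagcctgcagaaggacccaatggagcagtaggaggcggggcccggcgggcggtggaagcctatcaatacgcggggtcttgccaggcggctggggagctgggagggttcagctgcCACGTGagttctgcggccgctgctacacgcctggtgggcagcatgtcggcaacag
PNO1: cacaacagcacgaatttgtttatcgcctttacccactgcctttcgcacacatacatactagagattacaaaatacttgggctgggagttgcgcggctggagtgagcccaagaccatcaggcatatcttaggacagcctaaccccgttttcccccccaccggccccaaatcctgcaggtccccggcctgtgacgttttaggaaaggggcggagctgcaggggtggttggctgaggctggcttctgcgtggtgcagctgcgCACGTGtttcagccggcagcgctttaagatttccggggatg
UTP15: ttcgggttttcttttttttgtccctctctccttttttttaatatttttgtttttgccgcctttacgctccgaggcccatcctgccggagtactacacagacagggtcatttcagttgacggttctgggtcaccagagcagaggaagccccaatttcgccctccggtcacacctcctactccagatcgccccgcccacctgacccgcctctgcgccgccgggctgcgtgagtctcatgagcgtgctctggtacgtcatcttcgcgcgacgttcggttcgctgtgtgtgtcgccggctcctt
FBL: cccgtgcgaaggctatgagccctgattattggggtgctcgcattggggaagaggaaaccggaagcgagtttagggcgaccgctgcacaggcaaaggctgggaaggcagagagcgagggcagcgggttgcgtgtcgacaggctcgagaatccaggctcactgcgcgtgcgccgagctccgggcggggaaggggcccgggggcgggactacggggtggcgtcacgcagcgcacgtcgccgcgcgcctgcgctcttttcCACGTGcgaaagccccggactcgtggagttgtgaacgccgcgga
NOB1: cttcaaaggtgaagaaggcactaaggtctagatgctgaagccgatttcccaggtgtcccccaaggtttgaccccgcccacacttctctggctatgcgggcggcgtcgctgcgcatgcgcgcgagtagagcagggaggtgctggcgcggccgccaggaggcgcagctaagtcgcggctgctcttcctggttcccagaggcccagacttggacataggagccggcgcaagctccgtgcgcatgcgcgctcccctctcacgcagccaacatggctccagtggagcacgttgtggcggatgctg
An E-box stands close to the start in NOL6, UTP20, RRP9, PNO1 and also in FBL, and these letters are not in the windows of UTP15 and NOB1.

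Over the whole module, 46 RefSeq promoter entries matched 40 member genes by symbol. The E-box, which reads the same on both strands, was in 18 of the 46 entries (39.1%), against 7.26% of 35116 entries for all genes and 8.37% of the 21328 entries for genes on the array. Of the 20 sites in member promoters, 18 lay within 50 bases of the start (90%), against 36.9% of sites over all promoters. Member promoters had a median GC content of 63.8%, against 58.7% over all promoters. Among entries with 56.7 to 67.2% GC, 34.8% of 23 member promoters held the E-box, against 9.23% of 9969 promoters. The letters CCGGAAG, a core of ETS factor sites, searched on both strands, were in 39.1% of member entries, against 10.3% of all. GGGCGG, the GC box, was in 78.3% of member entries, against 45.0% of all, also on both strands. Split by the difference between the times in control cells, the E-box was in 42.3% of the 26 entries of members that fell and in 41.2% of the 17 entries of those that did not pass.

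Before the results, some values bear on the arrays. RHOXF1 averaged 12.25 ± 0.10 in RHOXF1-transfected cells at 24 h, against 6.34 ± 0.21 in control cells, and RHOXF2 with its near-identical copy RHOXF2B averaged 12.83 ± 0.05 in RHOXF2-transfected cells, against 6.81 ± 0.30 (log2 signal, SD, n = 3 each). At 48 h they averaged 12.27 and 12.92 in the cells transfected with them, against 6.13 and 6.62 in control cells. The RHOXF1 row was also above control in RHOXF2-transfected cells, at 7.75, 7.03 and 9.12 at 48 h, against 5.67, 6.20 and 6.51 in control cells, a difference of 1.84 (limma adjusted p = 0.0462); at 24 h the difference was 1.14 and did not pass (0.449). Of the genes known from HEK293 cells, NEFL, NEFM, VIM, LIN28B, EYA1, KRT8 and KRT18 had mean signals from 9.28 to 12.82, and PAX2 had 6.55. Markers of blood, liver, endothelium and fibroblasts (HBB, ALB, CD3E, PTPRC, PECAM1, CD14 and COL1A1) had mean signals from 2.97 to 7.89. The ranges overlap through PAX2 and COL1A1, and signals of different probes have no common scale, so these values describe the rows and test nothing about the cells. The array numbers in the labels do not overlap between 48 h and 24 h, so the order in which arrays were numbered and the time cannot be told apart. On the first principal component, replicate 3 of RHOXF2 at 48 h lay at -4.48, whereas the other 48 h arrays lay between 9.36 and 26.3 and the 24 h arrays between -17.2 and -8.71. The members' main RHOXF2 results at 48 h are therefore also given without it. The value of 9.12 in the RHOXF1 row comes from this same array, and the difference of that row is not given without it.

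Values are log2 signals from robust multi-array averaging (RMA). Member genes had mean signals between 8.07 and 12.43. Signals of different rows depend on their probes, so genes were compared only with themselves across arrays. The test was limma's moderated test on all arrays, two-sided, with Benjamini-Hochberg adjustment over the 21214 rows of each comparison, and a gene passed at an adjusted p under 0.05.

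The first question is whether the module's RNA levels differ between 48 h and 24 h of culture after transfection. Of the 45 members, 42 were lower at 48 h in RHOXF1-transfected cells, 42 in RHOXF2-transfected cells and 43 in control cells, and 42 were lower in all 3 transfections. The median log2 difference of members was -0.29 in RHOXF1-transfected cells, -0.24 in RHOXF2-transfected cells and -0.38 in control cells. Over all rows the medians were -0.01, 0.01 and -0.03 in the same order, and over the fifth of rows with the highest signal they were -0.04, -0.04 and -0.01. In control cells 30 members fell and none rose, where 7.89% of all rows fell and 2098 of the 21214 rows rose. In RHOXF1-transfected cells 13 members fell, where 1.35% of all rows fell, and in RHOXF2-transfected cells 3 fell (NOL11, UTP20 and UTP15), where 0.259% did. All 13 members that fell in RHOXF1-transfected cells and all 3 in RHOXF2-transfected cells were among the 30 that fell in control cells, of which they make up 43.3% and 10%.

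In bulk RNA a lower level in each cell and fewer cells that hold the RNA cannot be told apart. All 3 arrays at 48 h lay below all 3 at 24 h for 32 members in RHOXF1-transfected cells, where 14.7% of all rows did so. The count was 14 members in RHOXF2-transfected cells, where 8.11% of rows did so, and 37 members in control cells, where 15.7% did. These 3 comparisons share no arrays, and the members' differences correlated across the 45 genes at Pearson's r of 0.93 between RHOXF1-transfected and control cells, 0.85 between RHOXF2-transfected and control cells and 0.92 between both RHOX transfections. Spearman's values were 0.86, 0.75 and 0.84; the points share their probes and normalization, and genes are not independent replicates.

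**Figure D1:**
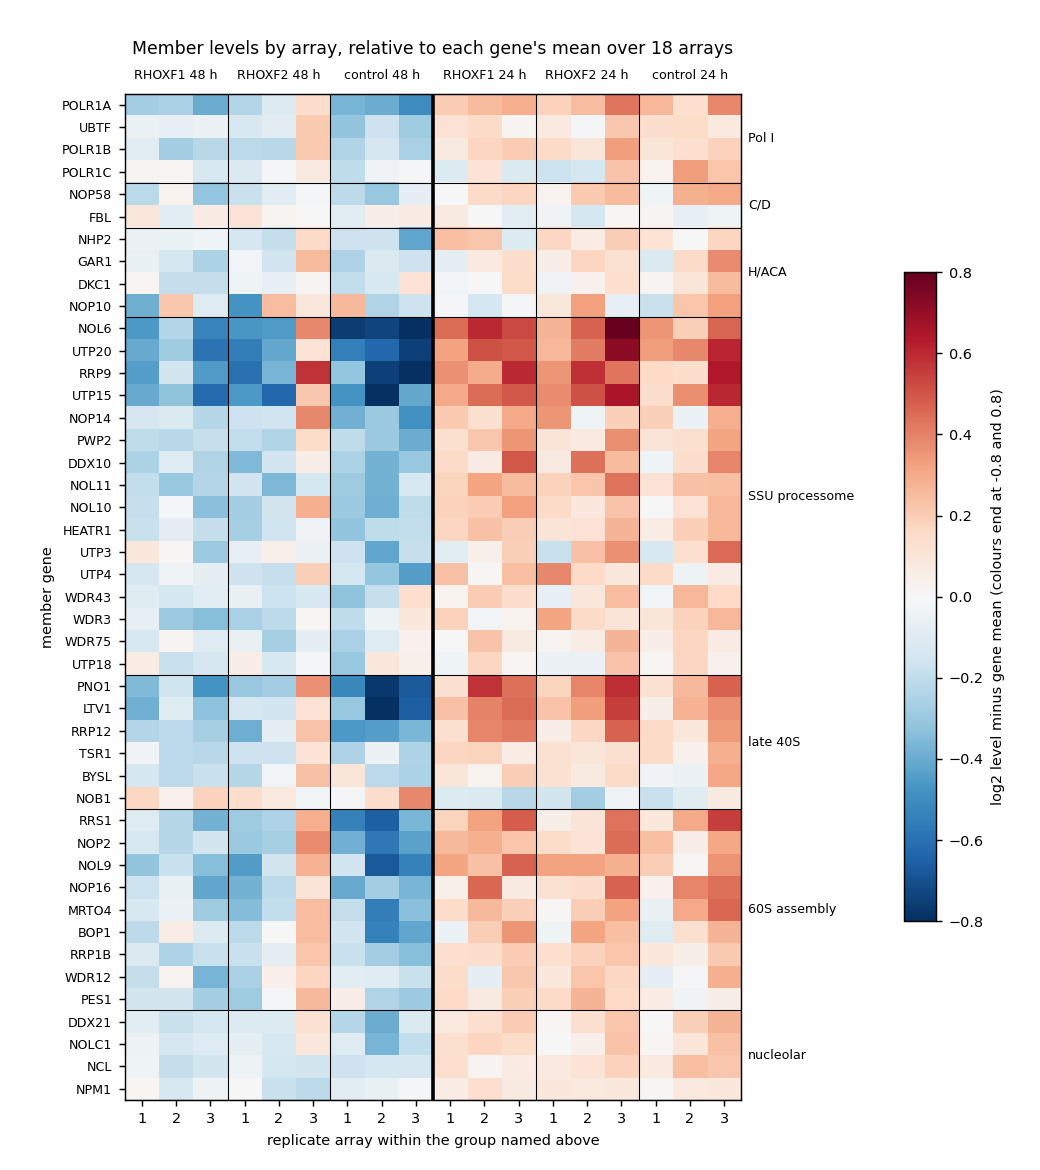
Each row is a member gene, grouped by role, and each column an array, with 48 h arrays on the left and 24 h arrays on the right. The colour is the log2 signal minus that gene's mean over 18 arrays. Most genes are blue at 48 h and red at 24 h, FBL and NOB1 are not, and replicate 3 of RHOXF2 at 48 h is red for many genes.

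Among the RNA polymerase I genes, 3 of 4 fell in control cells and 1 of 4 in RHOXF1-transfected cells. POLR1A, the largest subunit of the enzyme, measured 9.65, 9.67 and 9.52 at 48 h against 10.13, 10.18 and 10.21 at 24 h in RHOXF1-transfected cells. It measured 9.69, 9.81 and 10.07 at 48 h against 10.11, 10.17 and 10.35 at 24 h in RHOXF2-transfected cells, and 9.55, 9.53 and 9.42 against 10.19, 10.06 and 10.31 in control cells. All 48 h arrays lay below all 24 h arrays of the same transfection. Its log2 differences were -0.56 ± 0.10 in RHOXF1-transfected cells (limma adjusted p = 0.0078), -0.36 ± 0.10 in RHOXF2-transfected cells (0.0686) and -0.69 ± 0.10 in control cells (0.00048; SE, n = 3 against 3). POLR1B, the second largest subunit, and UBTF, the factor that holds ribosomal genes open for transcription, fell in control cells by 0.35 and 0.38 on the log2 scale, with limma adjusted p-values of 0.0255 and 0.0079. POLR1C, a subunit shared with RNA polymerase III, differed by 0.01 in both RHOX transfections and by -0.27 in control cells, and did not pass in any.

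Of the snoRNP genes, 1 of 2 box C/D and 1 of 4 box H/ACA genes fell in control cells, and none fell in either RHOX transfection. NOP58, a core protein of box C/D particles, fell by 0.38 in control cells (limma adjusted p = 0.0233). FBL, the methyltransferase of those particles, had log2 differences of 0.03, 0.10 and 0.04 in RHOXF1-transfected, RHOXF2-transfected and control cells. It measured 12.29, 12.11 and 12.26 at 48 h against 12.27, 12.20 and 12.11 at 24 h in RHOXF1-transfected cells, 12.31, 12.22 and 12.20 against 12.17, 12.06 and 12.21 in RHOXF2-transfected cells, and 12.12, 12.25 and 12.27 against 12.22, 12.13 and 12.16 in control cells. The ranges of FBL overlapped between the times in all 3 transfections. Among the box H/ACA genes, NHP2 fell in control cells by 0.34 (limma adjusted p = 0.0334), and its other row fell by 0.39 (0.0370); both rows list the same transcripts, and whether 1 of them reads a near-identical copy was not tested. DKC1, the pseudouridine synthase, and NOP10 and GAR1, its partners, did not pass, with differences between -0.04 and -0.32 over the 3 transfections.

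The small subunit processome held the most negative member difference in each transfection. All 16 of its genes were lower at 48 h in every transfection, 6 fell in RHOXF1-transfected cells, 3 in RHOXF2-transfected cells and 11 in control cells. UTP20, a large scaffold of the particle, measured 8.76, 8.88 and 8.58 at 48 h against 9.49, 9.68 and 9.66 at 24 h in RHOXF1-transfected cells, 8.61, 8.75 and 9.28 against 9.43, 9.58 and 9.88 in RHOXF2-transfected cells, and 8.62, 8.54 and 8.42 against 9.50, 9.55 and 9.78 in control cells. No 48 h array reached a 24 h array, and replicate 3 was the highest of the 48 h arrays with RHOXF2. The differences were -0.87 ± 0.14, -0.75 ± 0.14 and -1.08 ± 0.14 in RHOXF1-transfected, RHOXF2-transfected and control cells (SE), with limma adjusted p-values of 0.0071, 0.0243 and 0.00040.

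NOL6, another protein of the particle, measured 8.21, 8.43 and 8.13 at 48 h against 9.11, 9.26 and 9.20 at 24 h in RHOXF1-transfected cells, 8.20, 8.22 and 9.05 against 8.94, 9.14 and 9.49 in RHOXF2-transfected cells, and 7.91, 7.93 and 7.77 against 9.02, 8.86 and 9.14 in control cells. With RHOXF2, the array of replicate 3 at 48 h lay inside the 24 h range, and the other 48 h arrays did not. NOL6 fell by 0.93 ± 0.17 in RHOXF1-transfected cells (limma adjusted p = 0.0092) and by 1.14 ± 0.17 in control cells (0.00068), while the difference of -0.70 ± 0.17 with RHOXF2 did not pass (0.0523). In control cells this is a level 2.20-fold lower at 48 h.

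UTP15, which in the early processome also helps ribosomal DNA transcription, fell by 0.86, 0.81 and 0.93 in RHOXF1-transfected, RHOXF2-transfected and control cells, with SE of 0.17 each and limma adjusted p-values of 0.0118, 0.0312 and 0.0019. Its values at 48 h were 8.54, 8.62 and 8.32 with RHOXF1, 8.48, 8.31 and 9.16 with RHOXF2 and 8.46, 8.15 and 8.53 in control cells, and at 24 h they were 9.24, 9.39 and 9.43 with RHOXF1, 9.32, 9.45 and 9.60 with RHOXF2 and 9.08, 9.31 and 9.54 in control cells. The groups did not overlap in any transfection. NOL11, of the same early complex, measured 9.90, 9.79 and 9.86 at 48 h against 10.27, 10.41 and 10.35 at 24 h with RHOXF1, 9.94, 9.73 and 9.96 against 10.28, 10.32 and 10.53 with RHOXF2, and 9.81, 9.72 and 9.97 against 10.21, 10.33 and 10.34 in control cells. NOL11 fell by 0.49, 0.50 and 0.46 with SE of 0.09, and its adjusted p-values with limma were 0.0088, 0.0212 and 0.0027. Its times did not overlap in any transfection, and replicate 3 of RHOXF2 at 48 h lay beside replicate 1.

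RRP9, a protein specific to the U3 snoRNP, measured 8.42, 8.72 and 8.41 at 48 h against 9.23, 9.16 and 9.46 at 24 h in RHOXF1-transfected cells, 8.27, 8.49 and 9.44 against 9.22, 9.45 and 9.29 in RHOXF2-transfected cells, and 8.56, 8.12 and 7.79 against 9.02, 9.01 and 9.51 in control cells. With RHOXF2, replicate 3 at 48 h lay inside the 24 h range. RRP9 fell by 1.02 ± 0.23 in control cells (SE, limma adjusted p = 0.0062), and its differences of -0.77 and -0.58 in RHOXF1- and RHOXF2-transfected cells did not pass. HEATR1 and PWP2, repeat proteins of the particle, fell in RHOXF1-transfected cells by 0.35 and 0.44 and in control cells by 0.41 and 0.48. HEATR1 measured 10.84, 10.94 and 10.83 at 48 h against 11.19, 11.25 and 11.22 at 24 h with RHOXF1, 10.75, 10.86 and 10.99 against 11.12, 11.14 and 11.29 with RHOXF2, and 10.70, 10.82 and 10.82 against 11.08, 11.21 and 11.29 in control cells. PWP2 measured 9.32, 9.29 and 9.33 at 48 h against 9.65, 9.73 and 9.87 at 24 h with RHOXF1, 9.32, 9.28 and 9.66 against 9.62, 9.59 and 9.89 with RHOXF2, and 9.31, 9.22 and 9.12 against 9.62, 9.65 and 9.83 in control cells. The times did not overlap for HEATR1 in any transfection, and for PWP2 they overlapped only with RHOXF2. The limma adjusted p-values were 0.0238 and 0.0278 with RHOXF1 and 0.0030 and 0.0057 in control cells. DDX10, NOL10, NOP14 and UTP4 fell in control cells by 0.36 to 0.53, with limma adjusted p-values between 0.0102 and 0.0342. UTP4, also of the early complex, measured 11.77, 11.87 and 11.83 at 48 h against 12.13, 11.91 and 12.14 at 24 h with RHOXF1, 11.74, 11.72 and 12.09 against 12.29, 12.06 and 11.98 with RHOXF2, and 11.76, 11.59 and 11.46 against 12.06, 11.86 and 11.96 in control cells. UTP3, UTP18, WDR3, WDR43 and WDR75 did not pass in any transfection, with differences between -0.08 and -0.41.

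Of the late 40S factors, 3 of 6 fell in RHOXF1-transfected cells, none in RHOXF2-transfected cells and 4 in control cells. PNO1, an RNA-binding partner of the nuclease NOB1, measured 8.83, 9.02 and 8.70 at 48 h against 9.31, 9.76 and 9.62 at 24 h in RHOXF1-transfected cells, 8.88, 8.90 and 9.55 against 9.35, 9.57 and 9.77 in RHOXF2-transfected cells, and 8.66, 8.41 and 8.51 against 9.30, 9.44 and 9.65 in control cells. It fell by 0.71 ± 0.16 with RHOXF1 (limma adjusted p = 0.0206) and by 0.94 ± 0.16 in control cells (0.0014). Its times did not overlap with RHOXF1 or in control cells. LTV1, which leaves the maturing 40S particle late, measured 9.61, 9.89 and 9.67 at 48 h against 10.23, 10.39 and 10.44 at 24 h with RHOXF1, 9.86, 9.84 and 10.11 against 10.22, 10.33 and 10.55 with RHOXF2, and 9.69, 9.05 and 9.33 against 10.04, 10.27 and 10.36 in control cells, without overlap in any transfection. LTV1 fell by 0.63 ± 0.14 with RHOXF1 (limma adjusted p = 0.0179) and by 0.87 ± 0.14 in control cells (0.00087). RRP12, a repeat protein needed for export, measured 8.82, 8.85 and 8.79 at 48 h against 9.19, 9.44 and 9.47 at 24 h with RHOXF1, 8.67, 8.98 and 9.29 against 9.11, 9.22 and 9.53 with RHOXF2, and 8.60, 8.62 and 8.69 against 9.21, 9.15 and 9.39 in control cells. It fell by 0.55 and 0.62 with RHOXF1 and in control cells, and TSR1, a GTPase-like factor, fell by 0.34 in control cells (limma adjusted p = 0.0192). For RRP12 the limma adjusted p-values were 0.0255 and 0.0043. BYSL, which binds early pre-40S particles, did not pass, at -0.29, -0.12 and -0.20.

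NOB1, the endonuclease that makes the final cut of 18S ribosomal RNA, had positive differences where those of PNO1 were negative. It measured 10.66, 10.53 and 10.68 at 48 h against 10.38, 10.38 and 10.27 at 24 h with RHOXF1, 10.63, 10.57 and 10.47 against 10.35, 10.22 and 10.47 with RHOXF2, and 10.48, 10.63 and 10.88 against 10.31, 10.39 and 10.57 in control cells. The differences were 0.28, 0.22 and 0.24 with SE of 0.10 each, and none passed (limma adjusted p between 0.103 and 0.285). The times did not overlap with RHOXF1. With RHOXF2 they did not overlap either, but only narrowly, as the lowest 48 h array stood at 10.4745 and the highest 24 h array at 10.4674. In control cells the times overlapped. NOB1 was the only member with all 48 h arrays above all 24 h arrays in either RHOX transfection. Over all rows, 15.1% lay above in this way with RHOXF1 and 12% with RHOXF2.

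Of the 60S factors, 3 of 9 fell in RHOXF1-transfected cells, none in RHOXF2-transfected cells and 7 in control cells, and all 9 were lower in each. RRS1, which in yeast helps to place the 5S particle, measured 9.14, 9.01 and 8.86 at 48 h against 9.41, 9.56 and 9.72 at 24 h with RHOXF1, 8.95, 8.99 and 9.53 against 9.28, 9.34 and 9.67 with RHOXF2, and 8.70, 8.58 and 8.87 against 9.32, 9.54 and 9.79 in control cells. Replicate 3 of RHOXF2 at 48 h again lay inside the 24 h range. RRS1 fell by 0.56 ± 0.15 with RHOXF1 (limma adjusted p = 0.0416) and by 0.83 ± 0.15 in control cells (0.0018). NOL9, a kinase of the precursor's spacer, and RRP1B fell by 0.62 and 0.34 with RHOXF1 and by 0.65 and 0.38 in control cells. NOL9 measured 9.57, 9.71 and 9.54 at 48 h against 10.20, 10.12 and 10.35 at 24 h with RHOXF1, 9.44, 9.73 and 10.16 against 10.21, 10.20 and 10.17 with RHOXF2, and 9.73, 9.21 and 9.34 against 10.08, 9.89 and 10.24 in control cells. RRP1B measured 10.53, 10.40 and 10.47 at 48 h against 10.78, 10.79 and 10.84 at 24 h with RHOXF1, 10.47, 10.57 and 10.87 against 10.78, 10.83 and 10.87 with RHOXF2, and 10.47, 10.36 and 10.31 against 10.73, 10.69 and 10.85 in control cells. The times overlapped only for RRP1B with RHOXF2, where replicate 3 at 48 h and replicate 3 at 24 h both stood at 10.87. The limma adjusted p-values were 0.0265 and 0.0411 with RHOXF1 and 0.0074 and 0.0088 in control cells. NOP2, which methylates 28S ribosomal RNA, MRTO4, NOP16 and BOP1 fell in control cells by 0.66, 0.59, 0.64 and 0.47. NOP2 measured 9.83, 9.73 and 9.81 at 48 h against 10.22, 10.24 and 10.18 at 24 h with RHOXF1, 9.66, 9.70 and 10.34 against 10.11, 10.07 and 10.41 with RHOXF2, and 9.58, 9.39 and 9.53 against 10.20, 10.02 and 10.27 in control cells. Replicate 3 with RHOXF2 at 48 h was the only 48 h array of NOP2 inside its 24 h range. The 4 genes had limma adjusted p-values between 0.0036 and 0.0269 in control cells. The other row of BOP1 differed by -0.46 and did not pass (limma adjusted p = 0.0509). PES1 and WDR12, which form the PeBoW complex with BOP1, did not pass in any transfection, with differences between -0.17 and -0.33.

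Of the abundant nucleolar proteins, NCL, NOLC1 and DDX21 fell in control cells by 0.32, 0.34 and 0.40, with limma adjusted p-values of 0.0065, 0.0151 and 0.0078. NCL measured 11.57, 11.60 and 11.60 at 48 h against 11.81, 11.98 and 11.95 at 24 h in control cells, without overlap. NPM1, a chaperone of the nucleolus, measured 12.45, 12.31 and 12.40 at 48 h against 12.49, 12.57 and 12.51 at 24 h with RHOXF1, 12.44, 12.26 and 12.22 against 12.52, 12.51 and 12.52 with RHOXF2, and 12.35, 12.37 and 12.43 against 12.45, 12.51 and 12.52 in control cells. It differed by -0.14, -0.21 and -0.11 in RHOXF1-transfected, RHOXF2-transfected and control cells and did not pass. Its 3 bright rows, written for near-identical transcripts, gave -0.11 to -0.16 in control cells, and its remaining row, with a low signal, gave 0.09. The shared row of NOP56 and SNORD56 differed by -0.17, -0.25 and -0.21 and that of PPAN and P2RY11 by -0.07, -0.04 and -0.19 in the same order, and neither passed.

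**Figure D2:**
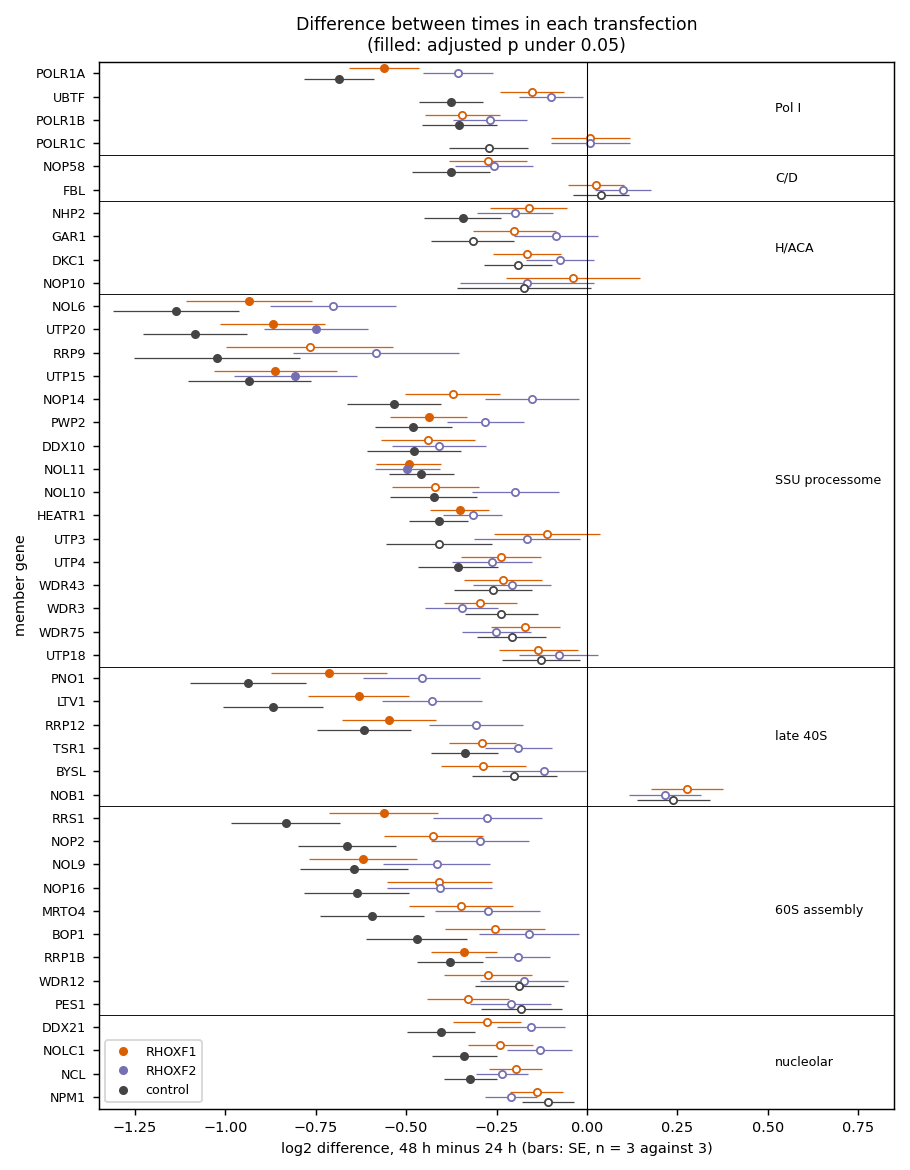
Points show the log2 difference between 48 h and 24 h for each member in RHOXF1-transfected, RHOXF2-transfected and control cells, bars show the SE (n = 3 against 3), and filled points passed at an adjusted p under 0.05. In control cells NOL6, UTP20, RRP9, PNO1, UTP15 and LTV1 lie farthest left, and FBL and NOB1 lie right of 0 in all 3 transfections.

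The number of members that passed depended on single arrays in both RHOX transfections. Without replicate 3 of RHOXF2 at 48 h, 16 members passed as lower with RHOXF2 rather than 3, where 1.51% of all rows did, and the members' median was -0.33. These 16 include NOL6 at -0.98, RRP9 at -0.94 and PNO1 at -0.68. Without replicate 2 or 3 at 24 h or replicate 2 at 48 h, none passed with RHOXF2, and without replicate 1 at 48 h, 1 did. With RHOXF1, 13 members passed over all arrays. Of these fits with an array left out, 4 and 0 members passed without replicate 2 or 3 at 24 h, and 5 and 3 without replicate 1 or 3 at 48 h. Fits with fewer arrays have fewer degrees of freedom. Apart from the fit without replicate 3 of RHOXF2 at 48 h, their shares of all rows are not given here. The counts alone therefore do not show whether members lost more calls than other rows. Over all alternatives tried, the members' median with RHOXF1 lay between -0.36 and -0.26. In control cells between 21 and 37 members passed under every alternative tried. The count was 37 after centring arrays on their medians, where 24.4% of all rows passed in either direction, rather than 17.8%.

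Over the 3 arrays of a group, the median deviation of members from their own means was -0.16 ± 0.05 in RHOXF1-transfected cells, -0.07 ± 0.18 in RHOXF2-transfected cells and -0.26 ± 0.03 in control cells at 48 h (SD). At 24 h it was 0.17 ± 0.03, 0.16 ± 0.07 and 0.16 ± 0.11 in the same order. The 24 h groups overlapped each other throughout. At 48 h the RHOXF1 arrays, from -0.22 to -0.13, all lay above the control arrays, from -0.29 to -0.24. With RHOXF2, replicate 3 stood at 0.14, among the 24 h arrays, and the others at -0.20 and -0.15.

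**Figure D3:**
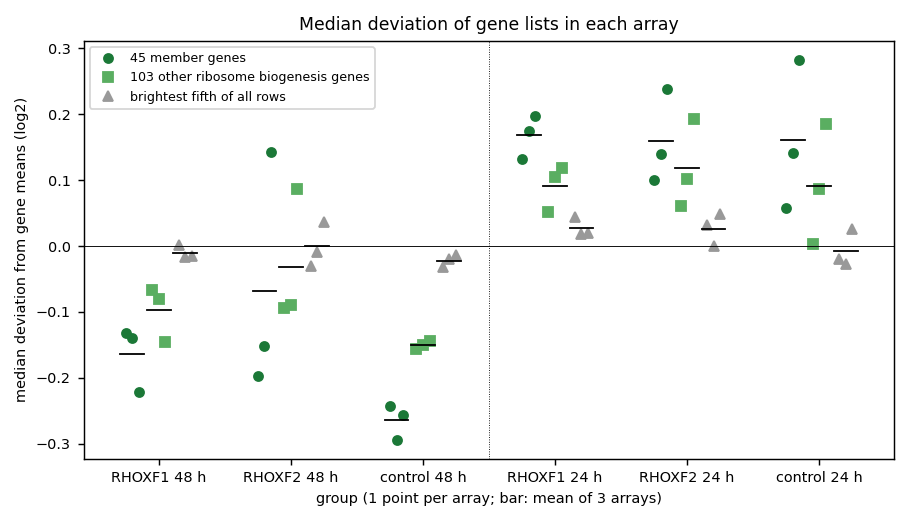
Each point is an array's median log2 deviation from the gene means, for the 45 members, for 103 other ribosome biogenesis genes and for the fifth of rows with the highest signal, and bars are means of 3 arrays. Members lie below 0 at 48 h in every array except replicate 3 of RHOXF2, and above 0 at 24 h, while the high-signal rows stay near 0.

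A list of 108 other ribosome biogenesis genes served as a wider view, of which 103 had a row. In RHOXF1-transfected cells 14 of these fell at 48 h, where 1.35% of all rows fell, and in RHOXF2-transfected cells 1 fell, where 0.259% did. In control cells 42 fell and 2 rose, where 7.89% of all rows fell and 2098 of the 21214 rows rose. The medians were -0.23, -0.15 and -0.24. The gene that fell with RHOXF2, RRP15, a 60S factor, differed by -0.61 (limma adjusted p = 0.0205), and the 2 that rose in control cells were POLR1D, a small subunit shared by RNA polymerases I and III, by 0.61 (0.0046), and RIOK3, a kinase of pre-40S particles, by 0.23 (0.0438); these 3 are named after their values were seen. Within the list, small subunit factors had 8 of 33 and 17 of 33 genes that fell in RHOXF1-transfected and control cells, and 60S factors 5 and 18 of 39. Nuclear exosome genes, which trim the precursor, had 0 and 2 of 12. With any 1 array of the RHOXF1 groups left out, 0 to 8 passed in place of the 14. With RHOXF2 the 1 became 16 without replicate 3 at 48 h, where 1.51% of all rows fell, and 4 without replicate 1 at 24 h. It became 0 without replicate 2 or 3 at 24 h and 0 without replicate 2 at 48 h. In control cells the 44 that passed in either direction became 21 without replicate 3 at 24 h and 27 without replicate 2 at 48 h. Shares of all rows in the other fits with an array left out are not given here.

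The study's main question was which transcripts differ when RHOXF1 or RHOXF2 is introduced. No member passed the test against control cells in any of the 4 comparisons. Few rows did so at all: 0.00943% of rows with RHOXF1 and 0.0943% with RHOXF2 at 48 h, and 0.00471% with RHOXF1 and 0.00943% with RHOXF2 at 24 h. At an unadjusted p under 0.05 limma gave 4 members with RHOXF1 and 17 with RHOXF2 at 48 h, all higher than control, and 1 lower member and 0 members at 24 h. The 17 became 4 without replicate 3 of RHOXF2 at 48 h and 11 with only the compared groups in the fit. The 4 with RHOXF1 became 0 without replicate 2 of RHOXF1 at 48 h and 10 with only the compared groups. In the fit over all arrays, 7.22% of all rows with RHOXF1 and 12.2% with RHOXF2 had such a p at 48 h, in either direction. At 24 h the shares were 4.76% and 7.99%. Shares of all rows are not given here for the fits with an array left out or with only the compared groups. The members' medians against control were 0.11 with RHOXF1 and 0.19 with RHOXF2 at 48 h, where the median of all rows was 0.01 in both, and 0.02 with either factor at 24 h. At 48 h the median with RHOXF1 was 0.06 without its replicate 2, and that with RHOXF2 was 0.08 without its replicate 3. At 24 h the medians had no stable sign: cyclic loess gave -0.02 with both, and over all alternatives they lay between -0.02 and 0.08 with RHOXF1 and between -0.05 and 0.09 with RHOXF2. At 48 h 37 members were higher with RHOXF1 and 41 with RHOXF2. All 3 arrays lay above all 3 control arrays for 10 members with RHOXF1 at 48 h, where 7.17% of all rows did so, and for 11 with RHOXF2, where 6.59% did. Both comparisons use the same 3 control arrays, whose median deviation was the lowest of the 6 groups.

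LTV1 had the smallest p at 48 h in both. It measured 9.61, 9.89 and 9.67 with RHOXF1 and 9.86, 9.84 and 10.11 with RHOXF2, against 9.69, 9.05 and 9.33 in control cells. The RHOXF2 arrays lay above the control arrays, and the RHOXF1 arrays overlapped them through control replicate 1. The differences were 0.37 ± 0.14 with RHOXF1 (SE, limma adjusted p = 0.619) and 0.58 ± 0.14 with RHOXF2 (0.154). Without control replicate 1 at 48 h, LTV1 passed with RHOXF2 at a difference of 0.75 (limma adjusted p = 0.0183), the only member to do so, and over its alternatives the adjusted p ran from 0.0183 to 0.793.

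NOL6 stood above all control arrays at 48 h with both factors: 8.21, 8.43 and 8.13 with RHOXF1 and 8.20, 8.22 and 9.05 with RHOXF2, against 7.91, 7.93 and 7.77 in control cells. Its differences were 0.39 ± 0.17 and 0.62 ± 0.17 (SE), with limma adjusted p-values of 0.674 and 0.213. UBTF measured 10.18, 10.17 and 10.19 with RHOXF1 and 10.11, 10.15 and 10.45 with RHOXF2, against 9.92, 10.07 and 9.95 in control cells, again without overlap, at differences of 0.20 and 0.25. PNO1 differed by 0.58 ± 0.16 with RHOXF2 (limma adjusted p = 0.213) and POLR1A by 0.36 ± 0.10 (0.210). At the other end, WDR3, a processome protein, measured 9.43, 9.21 and 9.16 with RHOXF1 and 9.24, 9.29 and 9.50 with RHOXF2, against 9.30, 9.45 and 9.58 in control cells, at differences of -0.18 and -0.10. DKC1 measured 9.93, 9.72 and 9.72 with RHOXF1, against 9.72, 9.79 and 10.03 in control cells, and WDR12 measured 10.03, 10.25 and 9.85, against 10.14, 10.12 and 10.04, at differences of -0.06 each. NOB1 differed by -0.04 with RHOXF1 and -0.10 with RHOXF2, and NPM1 by 0.00 and -0.08. The arrays overlapped control for all of these. A row that DKC1 shares with SNORA56, which is not a member row, differed by -0.56 with RHOXF1 and -0.38 with RHOXF2 (limma adjusted p of 0.537 and 0.413). All arrays of that row lay below control with both factors, where 5.39% and 5.24% of all rows did so. The row that DKC1 shares with SNORA36A and MIR664B differed by -0.12 and 0.05 and overlapped control. By role, the medians with RHOXF2 ran from 0.07 for the box C/D genes to 0.26 for the 60S factors, and without replicate 3 of RHOXF2 from 0.05 for the box H/ACA genes to 0.14 for the 60S factors.

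The RHOXF2 values were lower without replicate 3. Without it the members' median against control at 48 h was 0.08 rather than 0.19, and no member passed either way. NOL6 was then at 0.34, LTV1 at 0.49, PNO1 at 0.36, POLR1A at 0.25 and UBTF at 0.15. At the other end, WDR3 was at -0.18, NOB1 at -0.06 and NPM1 at -0.04. The number of members above control was 38 rather than 41.

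**Figure D4:**
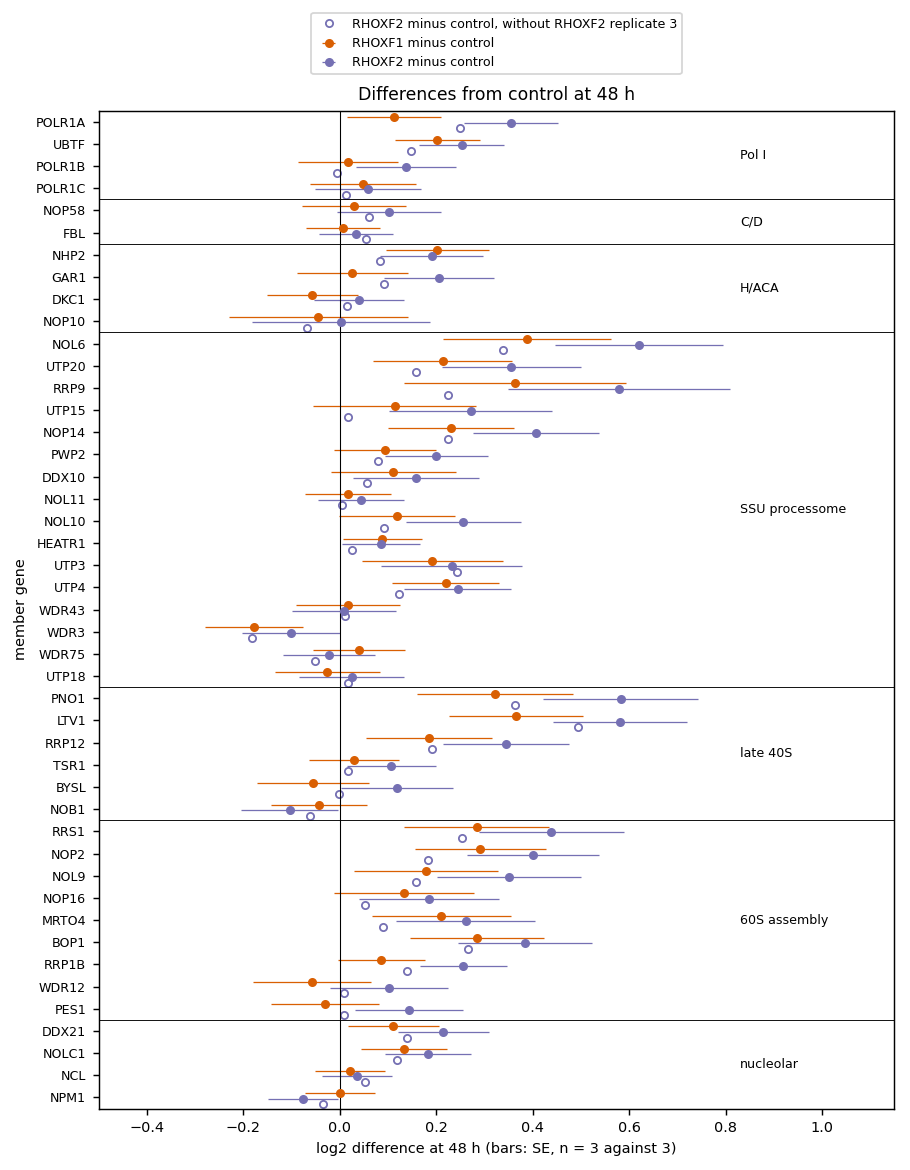
Points show the log2 difference from control cells at 48 h for each member with RHOXF1 and with RHOXF2, with SE bars (n = 3 against 3), and open points show RHOXF2 without its replicate 3. Most points lie right of 0, the open points lie left of the RHOXF2 points for most genes, and no member passed the test.

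At 24 h the members lay close to control cells. PES1 was the only member with all arrays above control, with 9.37, 9.28 and 9.40 for RHOXF1 and 9.36, 9.48 and 9.37 for RHOXF2, against 9.26, 9.18 and 9.25 in control cells, at differences of 0.12 and 0.17 (limma adjusted p of 0.969 and 0.759). Over all rows, 4.6% lay above control in this way with RHOXF1 and 3.89% with RHOXF2. No member had all arrays below control, where 4.93% and 7.18% of all rows did. POLR1C was the lowest by its test, at -0.23 and -0.22, with 8.93, 9.16 and 8.93 for RHOXF1 and 8.88, 8.90 and 9.27 for RHOXF2, against 9.07, 9.38 and 9.27 in control cells, which overlap. NCL had the next lowest statistic with RHOXF1, at 11.87, 11.76 and 11.80 against 11.81, 11.98 and 11.95 in control cells, and then WDR3, at 9.68, 9.48 and 9.52 against 9.60, 9.68 and 9.76. DKC1 was among the lowest with RHOXF2, at 9.89, 9.95 and 10.05 against 9.94, 10.01 and 10.17 in control cells. All of these overlapped control. Of the other ribosome biogenesis genes none passed at either time. The smallest p-values at 48 h belonged to RIOK1 at -0.32 and TAF1A at -0.32 with RHOXF1, and to EMG1 at 0.37 and RUVBL1 at 0.32 with RHOXF2.

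The direct comparison of both factors found no member that passed, where 0.0519% of rows passed at 48 h and 0.0141% at 24 h. The members' median for RHOXF1 minus RHOXF2 was -0.10 at 48 h, or 0.02 without replicate 3 of RHOXF2, and -0.01 at 24 h. Whether an effect differed between the times was tested as the difference from control at 48 h minus that at 24 h. No member passed for RHOXF1, where 0% of rows passed, or for RHOXF2, where 0.0141% did. The members' medians of that difference were 0.10 for RHOXF1 and 0.19 for RHOXF2, and 0.08 for RHOXF2 without its replicate 3 at 48 h. For RHOXF1 the median was 0.03 without control replicate 3 at 24 h and 0.06 without RHOXF1 replicate 1 at 24 h. The smaller counts of members that fell with time in RHOX-transfected cells than in control cells are therefore not shown to be a difference between transfections.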

How the data were processed

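RNA from 18 cultures of HEK293 cells was hybridised to 1 array each. The authors deposited log2 signals that they had computed by RMA in Affymetrix Expression Console 3.1, per the labels, a method that corrects background, normalizes quantiles and sums up the probes of a row. The sample descriptions and row identifiers are those of the Human Gene 1.0 ST array, although the series' design text speaks of exon arrays. Quantile normalization fixes the distribution on every array, so a shift shared by all RNAs would not be seen. Of 33297 rows, 21214 had a symbol in the platform's annotation and were tested; 19460 had 1 symbol, 1754 several and 12083 none. Array medians over tested rows ran from 7.42 to 7.44 at 24 h and from 7.48 to 7.52 at 48 h.

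Groups were taken from the labels. The model was fitted by lmFit and eBayes of limma 3.58.1 (R 4.3.3) with 1 mean per group over all arrays, with 12 residual and 6.50 prior degrees of freedom, for 11 comparisons. No row was filtered out for low signal, and the number of arrays limits the precision. The fit was first tested on simulated data. The genes given with values in every array were those with the smallest p among members that passed, at most 12 for each comparison, and the 3 with the highest and lowest test statistic in each comparison with control. The brightest member of a role and the one with the largest statistic against control are also named. RRP9 was added after its values were seen, and the rest are given by role. Members and lists were chosen with earlier results of these data known. Promoters came from RefSeq for GRCh38.p14 and were matched by symbol. Alternatives covered other variance models, normalizations, row sets, a replicate block and each array left out.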

Additional observations from a re-analysis of the deposited data

How the results depend on the processing

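No comparison with control had a member that passed under any alternative, except LTV1 with RHOXF2 at 48 h without control replicate 1, where leaving out single arrays gave 0 to 1. Counts of members that fell with time moved by over 1.5 times as follows. With RHOXF1 the 13 became 23 after centring arrays on their medians, 23 with only the compared groups and 7 over all rows of the table, and 0 to 11 with single arrays left out. With RHOXF2 the 3 became 7 after centring, 5 among rows above the median signal, 0 with only the compared groups, and 0 to 16 with single arrays left out. For the other ribosome biogenesis genes, the 14 with RHOXF1 became 30, 2 and 26 after centring, over all rows and with the compared groups, and 0 to 8 with arrays left out. The 1 with RHOXF2 became 3 with trend and robust variance, 7 after centring, 4 above the median signal, 0 with the compared groups, and 0 to 16 with arrays left out. The 44 in control cells became 27 over all rows, 21 with the compared groups, and 21 to 36 with arrays left out. After centring, the share of all rows that passed in either direction was 5.76% rather than 4.42% with RHOXF1. It was 1.23% rather than 1.24% with RHOXF2 and 24.4% rather than 17.8% in control cells. The median time difference of all rows was then -0.07, -0.05 and -0.10 in the same order, rather than -0.01, 0.01 and -0.03. Array medians were higher at 48 h than at 24 h, so centring made each time difference more negative. The alternatives with only the compared groups or fewer arrays have fewer degrees of freedom. Of the alternatives in this paragraph, only centring is given with its share of all rows, and the cause of the remaining shifts was not tested.

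With single arrays left out, the members' median with RHOXF2 lay between -0.33 and -0.18 for time, 0.079 and 0.25 against control at 48 h, and 0.080 and 0.23 for the effect at 48 h minus that at 24 h, and RHOXF1 minus RHOXF2 at 48 h between -0.16 and 0.015. The largest departures were without replicate 3 of RHOXF2 at 48 h. Every group then holds at least 2 arrays.

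The replicate numbers were not taken as pairs in the main fit. Each time had 9 same-numbered pairs of arrays, and residuals correlated at over 0.1 for 2 of them at 48 h but for 8 at 24 h. The pairs of replicate 1 at 24 h correlated at 0.45 to 0.52, whereas pairs at 48 h lay between -0.35 and 0.24. With the replicate block, no member passed against control (0 in each comparison), and LTV1 with RHOXF2 at 48 h had a limma adjusted p of 0.118. With the number as a random block, added after seeing the data, its correlation pooled over both times was 0.07. The other ribosome biogenesis genes that fell with RHOXF2 then numbered 3.

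Members above control at 24 h numbered 27 with RHOXF1, or 17 with cyclic loess, and 26 with RHOXF2, or 14 with repeated quantile normalization. Without replicate 3 of RHOXF2 at 48 h, BYSL, POLR1B and NOP10 turned from above to below control. Among the members followed singly, sign changes against control were as follows, and none of these differences passed over all arrays. With RHOXF1 at 48 h, FBL (0.0069) became -0.013 with quantile normalization repeated and -0.0082 with cyclic loess, and NPM1 (0.0005) became -0.0048, -0.016 and, after centring, -0.00015. With RHOXF2 at 48 h, NOP10 (0.0022) became -0.012 with cyclic loess. With RHOXF1 at 24 h, repeated quantile normalization and cyclic loess gave -0.019 and -0.024 for FBL (0.022) and -0.00062 and -0.013 for NPM1 (0.032), and with RHOXF2 -0.024 and -0.015 for NPM1 (0.025). With single arrays left out at 48 h, the differences with RHOXF1 lay between -0.13 and 0.035 for DKC1, -0.16 and 0.038 for WDR12, -0.041 and 0.062 for FBL, -0.20 and 0.11 for NOP10, -0.13 and 0.063 for NOB1 and -0.031 and 0.038 for NPM1. Those with RHOXF2 lay between -0.20 and 0.0025 for NOB1, -0.014 and 0.061 for FBL and -0.14 and 0.22 for NOP10. At 24 h they lay with RHOXF1 between -0.053 and 0.014 for UBTF and -0.016 and 0.062 for FBL, and with RHOXF2 between -0.085 and 0.026 for UBTF, -0.057 and 0.018 for FBL and -0.16 and 0.096 for NOP10.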
